A study of Ovis aries with 2 samples.

Results

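POSTN, THBS1, THBS2, FN1, SPON2 and TNC, which encode secreted glycoproteins that bind cells to the matrix around them, were followed through every cell of the skin of straight wool and curly wool lambs. These 6 genes were taken by name, and all 6 were present among the 18161 genes of the table, so each was measured in all 14037 cells. They were counted in different cells. POSTN and THBS2 were counted mostly in keratinocytes rich in KRT5 and KRT15, whereas FN1 and SPON2 were counted mostly in dermal cells. THBS1 was split between these keratinocytes and other cells, and TNC was highest in 1 of the 2 dermal papilla cell clusters. FN1 was lower in the curly wool library in every dermal and vessel cluster. That was clearest in the dermal papilla cells, since the other clusters had few counts of FN1 or leaned on 1 cell. SPON2 differed little between the libraries within the dermal papilla cells.

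Matricellular proteins are secreted into the matrix but do little to build it. They bind integrins, syndecans, growth factors and structural fibres, and they are known for high levels in development and in wounds. Fibronectin, the product of FN1, is by contrast an adhesive scaffold that cells assemble into fibrils through integrins. In skin, such proteins lie at the basement membrane under the basal keratinocytes, around the bulge where the hair follicle stem cells (HFSC) sit, and in the dermal papilla, the small group of mesenchymal cells that instructs the hair bulb.

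Body side skin was taken from Hu sheep lambs at day 3 after birth, and the straight wool and the curly (wavy) wool lambs were under the same management. Skins of 3 lambs of each wool type were pooled, and each pool gave 1 droplet library (10× Genomics), in which cells from microdissected follicles and from whole skin had been mixed. A group is therefore 1 library, the spread between lambs was not measured, and the difference between the libraries has no replicate check. All intervals given here are 95% intervals that cover counting error only, so no test and no p-value is given.

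The straight library held 6452 cells and 57956122 unique molecular identifiers (UMIs, each standing for 1 captured transcript), and the curly library 7585 cells and 77634565 UMIs. The median cell had 7373.5 UMIs in the straight and 7495 in the curly library, and 3 counts in a whole library, the limit that a count of 0 allows, were 0.0518 and 0.0386 CPM (UMIs of a gene, scaled to a total of 1000000 UMIs in the same cells). Among all 13196 genes with at least 100 UMIs, the log2 ratios (curly over straight) had a median of -0.18, so ratios near that value do not stand apart from the other genes. The libraries shared 70 cell barcodes.

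Cells were clustered without the 6 genes, so that no cluster was defined by them, and 27 of 30 clusters had at least 25 cells in each library. Clusters 1 and 4 carried the markers of dermal papilla cells (DPC), among them IGFBP3, CRABP1 and APOD, and are called DPC-like. Cluster 26 was fibroblast-like, with LUM at 3881 CPM in the straight and 3266 CPM in the curly library, but it was small (46 and 51 cells) and shallow (a median of 899 and 856 UMIs per cell). Cluster 15 was endothelial-like and cluster 21 pericyte and smooth muscle-like. Clusters 5 and 13 were HFSC-like, and 8, 11 and 6 were hair shaft-like, inner root sheath (IRS)-like and matrix-like. Clusters without a name are given by their leading genes. The 7 clusters with KRT5 at 7000 CPM or more and KRT15 at 1000 CPM or more in both libraries (0, 5, 7, 12, 13, 17 and 18) are called KRT5 and KRT15 rich.

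**Figure D1:**
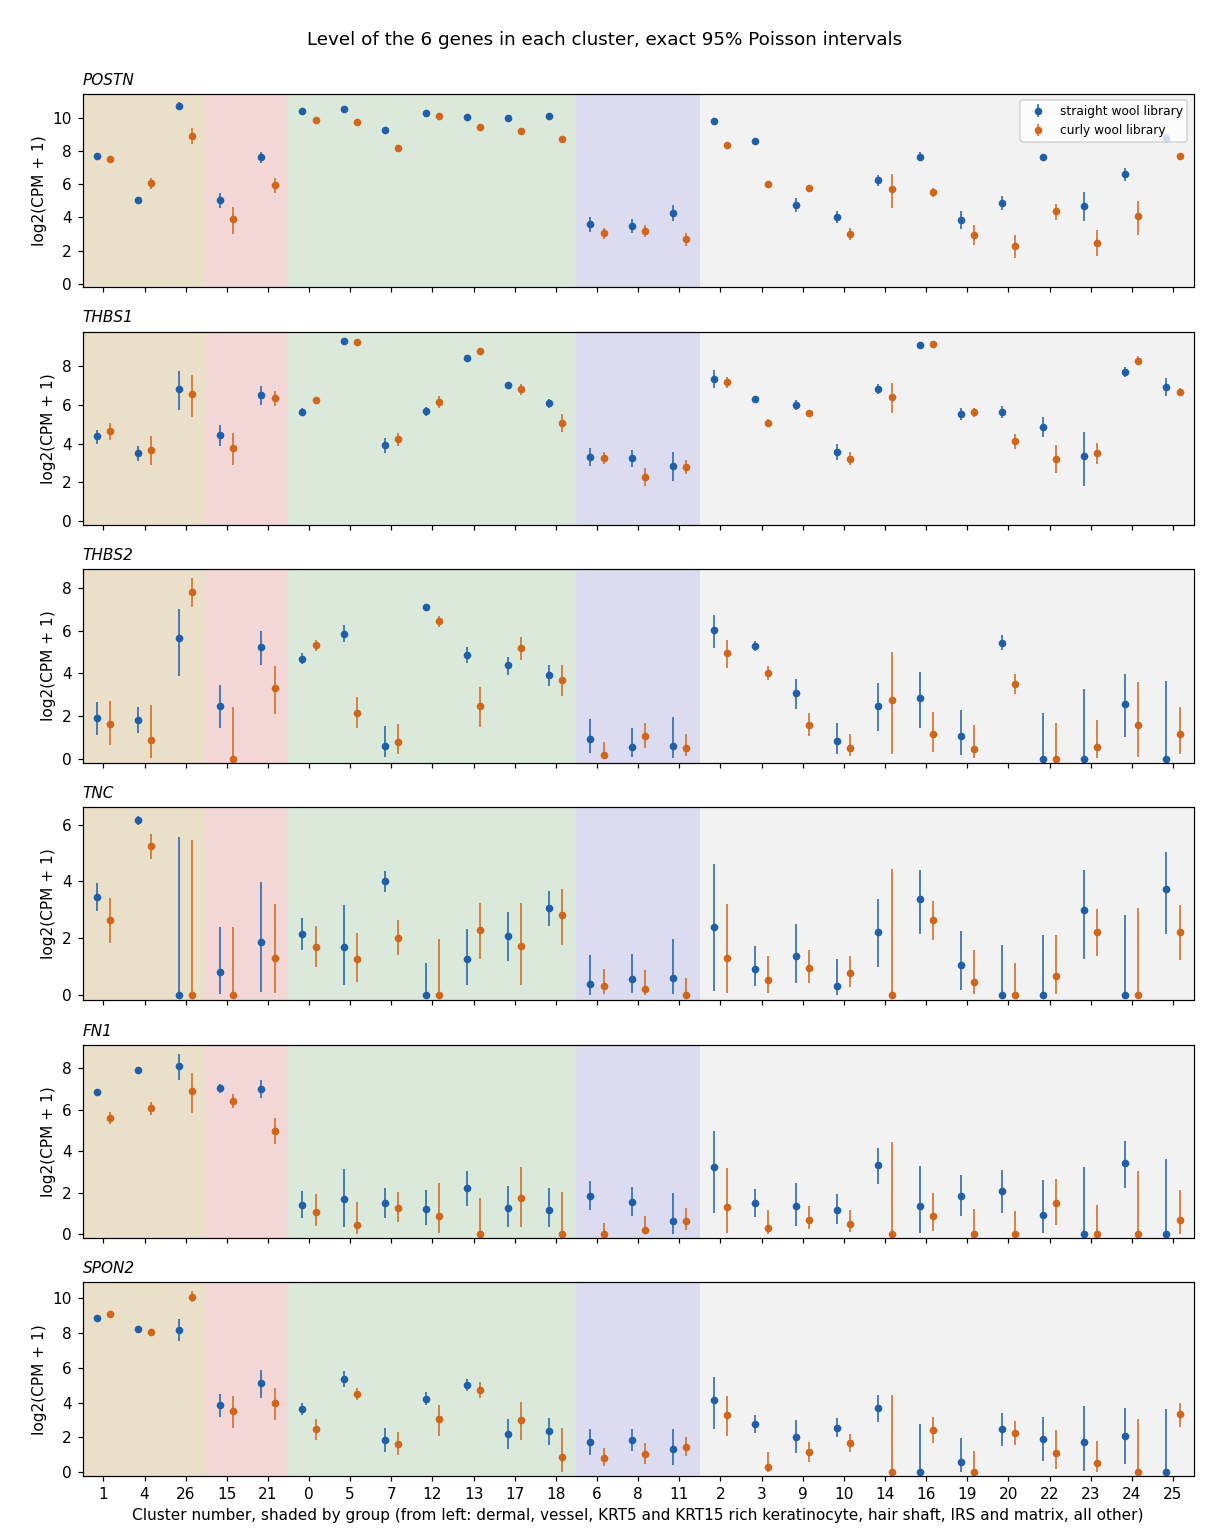
Level of each gene as log2(CPM + 1) in the 27 clusters with at least 25 cells in each library, straight library in blue and curly library in orange, with exact Poisson 95% intervals. The 7 KRT5 and KRT15 rich clusters and clusters 2 and 26 hold the 9 highest POSTN levels of each library, and FN1 stands above 30 CPM in both libraries in clusters 1, 4, 26, 15 and 21 and below 10 CPM in each of the other 22.

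POSTN and THBS2 were counted mainly in keratinocytes and FN1 and SPON2 mainly in dermal cells, while THBS1 and TNC were more spread. Of the 25368 POSTN UMIs of the straight library 84.5% came from the KRT5 and KRT15 rich clusters, as did 82.9% of the 12716 of the curly library, although these clusters held only 33.99% and 25.1% of the cells. For THBS1 the same clusters gave 54.8% and 50.8% of the UMIs, and for THBS2 69.1% and 62.02%. The dermal clusters 1, 4 and 26 gave 83.0% and 58.3% of the FN1 UMIs, 88.1% and 84.6% of the SPON2 UMIs, and 73.0% and 38.0% of the TNC UMIs. The vessel clusters 15 and 21 added 11.7% and 30.6% for FN1 and at most 1.87% for any of the other 5 genes. The hair shaft, IRS and matrix clusters, which build the fibre and its sheath, gave between 0.457% and 2.41% of the UMIs of any of the 6 genes, while they held 10.2% of straight and 18.5% of curly cells. All other clusters gave 38.8% and 44.6% of the THBS1 UMIs and 5.45% and 31.0% of the TNC UMIs. The KRT5 and KRT15 rich clusters gave 20.4% and 28.2% for TNC.

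**Figure D2:**
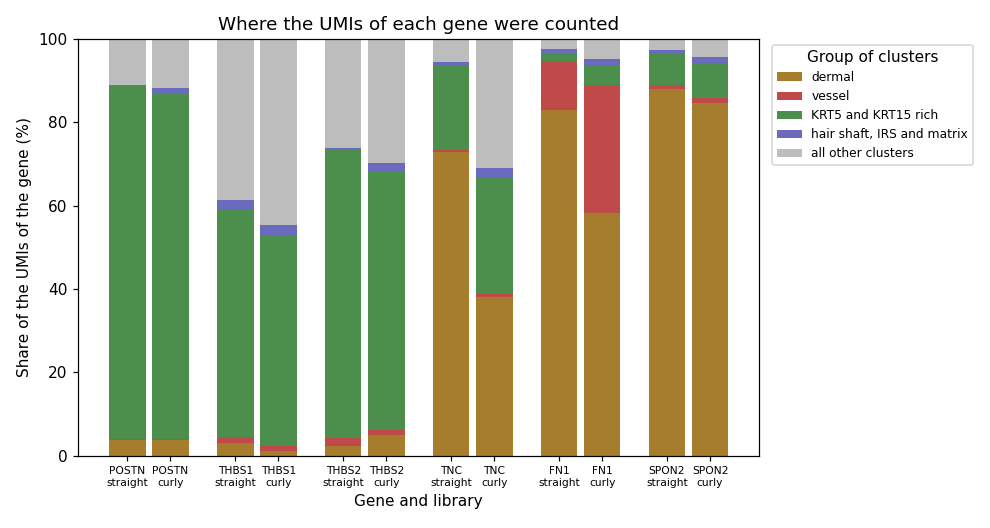
Share in percent of the UMIs of each gene counted in each group of clusters, 1 bar for each gene and library. Dermal clusters take 88.1% and 84.6% of SPON2, and KRT5 and KRT15 rich clusters 84.5% and 82.9% of POSTN.

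POSTN encodes periostin, a fasciclin domain protein that binds integrins and collagen. In the straight library its level was 1357 CPM (interval 1325 to 1390) in cluster 0, led by DLK2 and PAGE4, 1453 CPM (1375 to 1533) in HFSC-like cluster 5, 1263 CPM (1224 to 1303) in cluster 12, led by PTHLH and SFTPC, and 1055 CPM (1012 to 1099) in HFSC-like cluster 13. In the curly library the same clusters had 946 CPM (914 to 979), 865 CPM (832 to 900), 1089 CPM (1032 to 1149) and 685 CPM (645 to 728). Each of these 4 clusters was thus lower in curly, and the order changed. Cluster 5 led them in the straight library and cluster 12 in the curly library. The intervals of clusters 5 and 0 overlapped in the straight library, and no neighbours among the 4 overlapped in the curly library. Fibroblast-like cluster 26 had 1685 CPM (1412 to 1994), the highest of the straight library, from 135 UMIs, and 482 CPM (346 to 654) from 41 UMIs in the curly library.

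Periostin transcripts were also common per cell. At a fixed 2000 UMIs per cell, POSTN was found in 59.8% and 63.4% of the cells of cluster 0, in 63.5% and 65.7% of cluster 12, and in 78.7% and 65.8% of cluster 5 (straight and curly, 44, 13, 8, 2, 89 and 59 shallower cells left out). In clusters 0 and 12 the shares ran against the CPM, so no order of the libraries is read from them. Without thinning the shares were 74.5% and 80.6%, 78.5% and 86.8%, and 72.4% and 84.8%, at median depths of 7030 and 6987 UMIs in cluster 0, 8808 and 8368.5 in cluster 12 and 2913 and 5542 in cluster 5. In hair shaft-like cells, taken as cells that should lack POSTN, the share was 12.6% and 6.68% at 17315.5 and 17099 UMIs per cell, or 3.24% and 0.860% when thinned.

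POSTN was lower in the curly library in 16 of the 18 clusters with at least 100 of its UMIs, with a median log2 ratio of -1.05 over the 18. In 10 of them it was more than 2-fold lower, beside 3.98% of the 66041 pairs of a gene and one of these clusters. In 2 it was more than 2-fold higher, beside 3.08% of the pairs. Scaled by TMM, a normalisation that centres the ratios of most genes on 0, it was again lower in 16 clusters, 8 of them past 2-fold. The ratio was smallest in size in cluster 1, at -0.19 (-0.39 to 0), and cluster 12, at -0.21 (-0.30 to -0.12). Clusters 0, 5, 13 and 17, all high in POSTN, were also short of 2-fold, at -0.52, -0.75, -0.62 and -0.79. Cluster 10, among those past 2-fold lower, had only 15.5 and 6.98 CPM, near the 10.3 and 8.09 CPM of hair shaft-like cluster 8. In cycling-like cluster 18, whose cells carry basal keratins, POSTN was 1077 CPM against 422 CPM, a log2 ratio of -1.35 (-1.50 to -1.21).

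The lowest ratios were in clusters 22 and 3. In suprabasal interfollicular epidermis (IFE)-like cluster 22 POSTN was 196 CPM (171 to 224) in straight and 19.7 CPM (13.5 to 27.6) in curly cells, a log2 ratio of -3.32 (-3.89 to -2.79), and in cluster 3, led by HAMP, CA2 and KRT79, it was 388 CPM and 62.4 CPM, a ratio of -2.63 (-2.82 to -2.45). The basal keratins moved with it there. KRT14 was 2308 CPM in straight cells and 632 CPM in curly cells of cluster 22, and 6471 and 3049 CPM in cluster 3, and 4 of 5 basal IFE markers were lower in curly in each (summed levels 4065 and 1118 CPM, and 17890 and 9250.0 CPM). How far a different share of basal cells in these clusters entered the ratios was not tested. In cluster 18 KRT14 was higher in curly (17600.0 and 23940.0 CPM) while POSTN was lower.

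In 2 clusters POSTN went the other way. In DPC-like cluster 4 POSTN was 31.7 CPM (26.9 to 37.1) in straight and 65.5 CPM (51.8 to 81.8) in curly cells, a log2 ratio of 1.05 (0.63 to 1.45). A single cell held 40 of the 78 curly UMIs there, and 12.2% of the cells had a UMI in each library. Without the highest cell of each library the levels were 24.1 and 32.4 CPM and the ratio 0.43 (-0.14 to 0.97). The basal IFE markers of that cluster were also higher in curly, summed 694 against 1886 CPM, with 3 of 5 higher and KRT14 at 312 and 945 CPM, and their part in the POSTN value was not tested. In cluster 9, led by KRT6A, POSTN was 26.2 and 54.8 CPM, a ratio of 1.06 (0.63 to 1.52) that was 1.24 without the highest cells. With cells thinned to the fixed depth given above, POSTN was found in 6.77% of straight and 7.26% of curly cells there. The intervals (3.14 to 12.5 and 4.8 to 10.5) overlapped, so the shares did not repeat the difference in CPM. Median depths were 5161 and 16081.5 UMIs, and the part of depth in the ratio was not tested.

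THBS1 encodes thrombospondin 1, a trimer that binds CD47 and integrins and can activate latent TGF-beta. Its peak was shared by stem cell-like and glandular clusters. In HFSC-like cluster 5 it was 619 CPM (569 to 672) in straight and 601 CPM (573 to 630) in curly cells, and in myoepithelial-like cluster 16, the contractile cells of the sweat gland, 536 CPM (481 to 596) and 562 CPM (532 to 592). These levels did not differ beyond counting error between the libraries. Between the clusters, the intervals overlapped as well. HFSC-like cluster 13 came next with 334 CPM (309.7 to 359) and 431 CPM (399 to 465), and luminal sweat gland-like cluster 24 after it with 205 CPM (171 to 244) and 309 CPM (263 to 362). The first 6 places were held by the same clusters in the same order in both libraries.

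At 2000 UMIs per cell THBS1 was found in 55.9% and 55.6% of cluster 5, 48.3% and 49.8% of cluster 16 and 37.9% and 51.6% of cluster 13. The unthinned shares were 62.2% and 79.3%, 76.3% and 85.04%, and 72.7% and 81.1%. In hair shaft-like cells the thinned shares were 2.78% and 0.860%. Cluster 0 had far less THBS1 than cluster 5, at 49.2 and 74.1 CPM, although both were high in POSTN.

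Over the 19 clusters with at least 100 UMIs, THBS1 was higher in curly in 8 and lower in 11, with a median log2 ratio of -0.05, and after TMM scaling higher in 11 and lower in 8. It has therefore no single direction. It was past 2-fold in 3 clusters, all lower in curly: suprabasal IFE-like cluster 20 (48.7 and 16.4 CPM, ratio -1.57), cluster 3 (79.0 and 32.5 CPM, ratio -1.28) and cluster 18 (66.4 and 32.4 CPM, ratio -1.03). Of the 73286 pairs of a gene and one of the 19 clusters 3.25% were at least 2-fold lower in curly. After TMM scaling 2 of the 3 remained past 2-fold. In cluster 20 the basal IFE markers were lower in curly too, 4 of 5 of them, with summed levels of 4385 and 957 CPM and KRT5 at 3161 and 591 CPM, and their part in the THBS1 value was not tested. The highest ratios were 0.59 in cluster 24 (0.25 to 0.95) and 0.59 in cluster 0 (0.34 to 0.85).

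THBS2, whose product thrombospondin 2 shapes collagen fibrils and clears metalloproteinases, had 1 firm peak. In cluster 12 it was 137 CPM (124 to 150.1) in straight and 85.1 CPM (69.7 to 103) in curly cells, a log2 ratio of -0.68 (-1.002 to -0.371), and 55.5% and 44.9% of those cells had a UMI. At 2000 UMIs per cell the shares were 27.0% (22.1 to 32.3) and 17.9% (11.8 to 25.5), so the intervals overlapped, and 0 of 216 and 0 of 349 hair shaft-like cells had one, which allows up to 1.69% and 1.05%. Cluster 26 had a higher mean level over the libraries, 49.9 and 223 CPM, but from 4 and 19 UMIs, a ratio of 2.16 (0.57 to 4.18).

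Elsewhere THBS2 differed in direction between keratinocyte clusters. In cluster 0 it was 24.8 CPM (20.6 to 29.6) in straight and 38.5 CPM (32.3 to 45.5) in curly cells, a ratio of 0.63 (0.272 to 0.997). In HFSC-like cluster 5 it was 56.9 CPM (42.5 to 74.7) from 52 UMIs and 3.45 CPM (1.65 to 6.34) from 10 UMIs, a ratio of -4.05 (-5.19 to -3.05), and in HFSC-like cluster 13 28.2 and 4.53 CPM from 61 and 7 UMIs, a ratio of -2.64. Both HFSC-like clusters were low in curly cells, though under the 100 UMIs asked for a counted ratio. The highest cell held 11.5% of the UMIs of cluster 5 in the straight library. The dissociation genes also differed in cluster 5, in the direction of THBS2, with 7 of the 9 measured past 2-fold lower in curly, beside 3.25% of 3630 genes, and a median log2 ratio of -1.14, while in cluster 13 that median was 0.67. Their part in the THBS2 values was not tested. Cluster 3 was lower in curly as well, with 37.8 and 15.0 CPM and a ratio of -1.34 (-1.76 to -0.93), where 3.50% of 5687 genes were at least 2-fold lower.

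FN1 was counted mostly in the mesenchyme and the vessels. In DPC-like cluster 4 it was 240.1 CPM (227 to 254) in straight and 66.3 CPM (52.5 to 82.7) in curly cells, from 1173 and 79 UMIs. In DPC-like cluster 1 it was 116 CPM (104.0 to 129) and 47.6 CPM (38.3 to 58.5). Endothelial-like cluster 15 had 129 CPM (111 to 151) and 84.5 CPM (66.2 to 106), pericyte and smooth muscle-like cluster 21 128 CPM (95.02 to 169.8) and 30.8 CPM (19.1 to 47.0), and fibroblast-like cluster 26 275 CPM (172 to 416) and 118 CPM (56.3 to 216) from 22 and 10 UMIs. The straight library was the higher in all 5 clusters.

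The log2 ratio of FN1 was -1.86 (-2.20 to -1.53) in cluster 4, where 9.44% of 4830 genes were at least 2-fold lower in curly, and -1.28 (-1.63 to -0.94) in cluster 1, where 2.72% of 4405 genes were. It was -2.06 (-2.87 to -1.30) in cluster 21 and -1.22 (-2.47 to -0.09) in cluster 26, both under 100 UMIs, and -0.62 (-1.03 to -0.21) in cluster 15. A single endothelial-like cell held 40 of the 169 straight UMIs of cluster 15, and without the highest cell of each library that ratio was -0.38 (-0.83 to 0.06). In clusters 4 and 21 the ratio was -1.91 and -1.98 without them. In cluster 21 the fibroblast markers were lower in curly too, summed 2349 and 983 CPM, and their part was not tested.

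The share of cells with FN1 was lower in curly as well, with overlapping intervals in cluster 1. At 2000 UMIs per cell FN1 was found in 33.7% (29.9 to 37.7) of straight and 10.8% (6.83 to 16.1) of curly cells of cluster 4, and in 13.5% (10.9 to 16.5) and 8.27% (5.80 to 11.4) of cluster 1. Unthinned, the shares were 76.2% and 31.6%, and 31.1% and 15.0%, at median depths of 8088 and 5752.5 UMIs in cluster 4 and 4278 and 3988 in cluster 1. In mast cell-like cluster 14, at 3331.5 and 1721 UMIs per cell, 2.82% of straight and 0 of 74 curly cells (up to 4.86%) had an FN1 UMI, and in cluster 12 0.962% and 0.735%. Outside the 5 clusters FN1 reached at most 9.83 CPM in a straight and 2.34 CPM in a curly cluster.

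Other genes of cluster 4 differed as well, not all in one direction. Of the 8 DPC markers 3 were higher and 5 lower in curly, among them IGFBP3 at 3658 and 8110.0 CPM and WIF1 at 1380.0 and 693 CPM. COL1A1, the chain of type I collagen that fibronectin fibrils help to deposit, was 1235 and 621 CPM, a ratio of -0.99 (-1.10 to -0.88). The dissociation genes, which answer to enzyme and heat, had a median log2 ratio of -0.85 with 4 of 9 past 2-fold lower, beside 9.44% of all genes. Basal IFE markers were higher in curly as given for POSTN, and what any of these had to do with FN1 was not tested. In cluster 1, where FN1 was lower too, the dissociation median was -0.23 with 0 of 9 past 2-fold, and the basal IFE markers summed to 1438 and 1315 CPM. Their part in the FN1 value of that cluster was not tested either.

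TNC encodes tenascin C, a large multimeric protein that loosens the adhesion of cells to fibronectin. It had 1 clear site, DPC-like cluster 4, with 70.6 CPM (63.4 to 78.5) in straight and 37.0 CPM (26.9 to 49.6) in curly cells from 345 and 44 UMIs. The log2 ratio was -0.94 (-1.42 to -0.48), short of 2-fold. In DPC-like cluster 1 TNC was only 10.0 CPM (6.76 to 14.3) and 5.29 CPM (2.54 to 9.73). The clusters of one cell type therefore differed by more than the libraries did, and the next highest cluster over both libraries, cluster 7 led by KRT1 and LY6D, had 15.0 and 3.06 CPM with 29.3% and 53.8% of those UMIs in 1 cell each.

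At 2000 UMIs per cell TNC was found in 11.7% (9.21 to 14.6) and 6.70% (3.62 to 11.2) of the cells of cluster 4, with overlapping intervals, and in 1.35% and 0.243% of cluster 1. The unthinned shares of cluster 4 were 37.2% and 17.9%, and in mast cell-like cells they were 1.06% and 0 of 74. Cluster 12, the peak of THBS2, had 0 TNC UMIs in both libraries, of 3099776 and 1245567 UMIs, where 3 counts would be 0.968 and 2.41 CPM.

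SPON2 encodes spondin 2, a matrix protein with a thrombospondin repeat that binds integrins on immune cells. In DPC-like cluster 1 it was 451 CPM (427 to 476) in straight and 545 CPM (512 to 579) in curly cells, a log2 ratio of 0.27 (0.15 to 0.39). In DPC-like cluster 4 it was 296 CPM (281 to 311) and 259 CPM (231 to 289), a ratio of -0.19 (-0.38 to -0.01). The 2 DPC-like clusters differed in the sign of a small ratio, and both ratios kept their sign after TMM scaling. At 2000 UMIs per cell 56.3% (52.2 to 60.3) and 54.0% (49.1 to 58.9) of cluster 1 had a SPON2 UMI, and 45.8% (41.7 to 49.9) and 35.6% (28.8 to 42.7) of cluster 4, with overlapping intervals in each. Unthinned, the shares were 76.5% and 71.5%, and 80.6% and 70.9%.

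**Figure D3:**
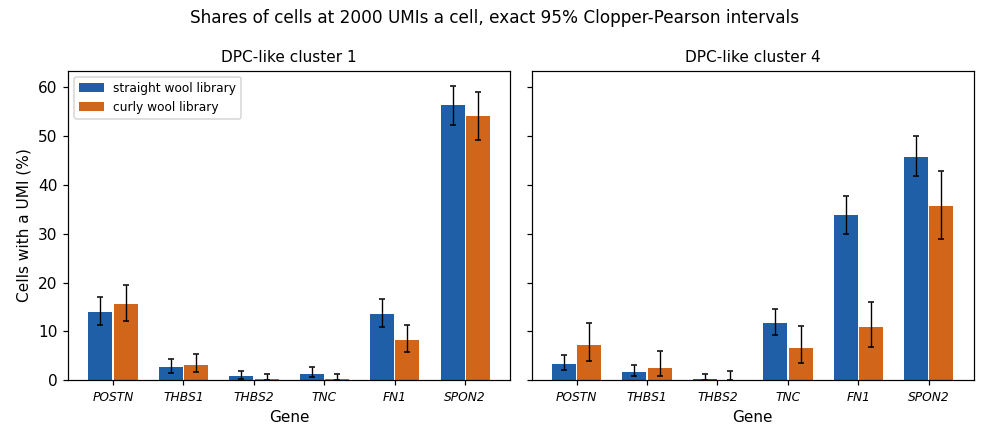
Share in percent of the cells of DPC-like clusters 1 and 4 with a UMI of each gene when each cell is thinned to 2000 UMIs, with exact Clopper-Pearson 95% intervals, straight library in blue and curly library in orange. FN1 in cluster 4 stands at 33.7% against 10.8%, while SPON2 in cluster 1 stands at 56.3% against 54.0%.

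SPON2 was highest of all in the curly cells of cluster 26, at 1069 CPM (861 to 1313) from 91 UMIs, against 287 CPM (182 to 431) from 23 UMIs in straight cells. The ratio of 1.90 (1.23 to 2.63) rests on few cells: 15.2% of 46 straight and 35.3% of 51 curly cells had a UMI, and 1 straight cell held 13 of the 23. Without the highest cell of each library the levels were 136 and 944 CPM and the ratio 2.79 (1.83 to 3.91). In this cluster 8.56% of 222 genes were at least 2-fold higher in curly. HFSC-like clusters had a small part, with 40.5 and 21.7 CPM in cluster 5 and 31.0 and 25.2 CPM in cluster 13, while in mast cell-like cells it was 11.9 CPM in straight and 0 UMIs in curly.

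Taken over whole libraries, 5 of the 6 genes were past 2-fold lower in curly, where 6.91% of 13196 genes were, and 10.2% were past 2-fold in either direction. POSTN was 437.7 CPM in straight cells and 164 CPM in curly cells (log2 ratio -1.42), THBS2 18.4 and 6.38 CPM (-1.53), TNC 8.87 and 1.83 CPM (-2.28), FN1 32.1 and 3.95 CPM (-3.02) and SPON2 55.2 and 21.7 CPM (-1.34). THBS1 was 68.6 and 75.3 CPM (0.14, 0.08 to 0.19). In such sums fewer cells of a type and less RNA per cell cannot be told apart, and the libraries differed in their cells: 19.9% of straight and 9.41% of curly cells were in dermal clusters, and 10.2% and 18.5% in hair shaft, IRS and matrix clusters.

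With the same cluster weights given to both libraries, the ratios were nearer 0 for all 6 genes. SPON2 went from -1.34 to -0.005, at 36.0 and 35.9 CPM. FN1 went from -3.02 to -1.54, at 20.04 and 6.88 CPM, and was the only one of the 6 still past 2-fold. TNC was then just short of it at -0.99, POSTN and THBS2 stood at -0.76 each and THBS1 at -0.064.

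**Figure D4:**
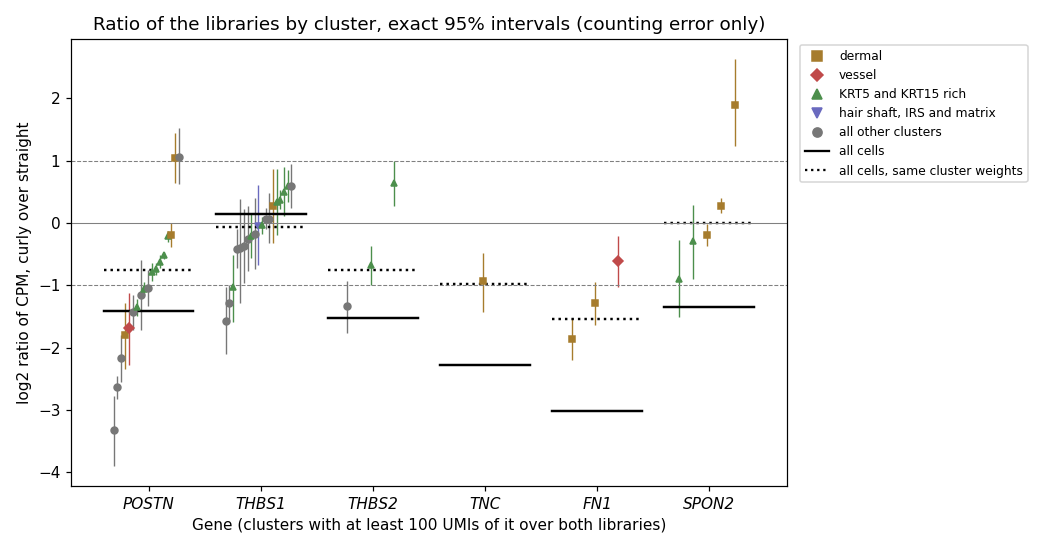
Log2 ratio of CPM, curly over straight, of each gene in each cluster with at least 100 of its UMIs, with exact 95% intervals; the solid line is the ratio over all cells, the dotted line the ratio with the same cluster weights in both libraries, and the dashed lines mark 2-fold. The solid line of SPON2 lies at -1.34 and its dotted line at -0.005, while both lines of FN1 lie below -1.

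The share of cells with UMIs of several of the genes varied between clusters. At 2000 UMIs per cell 2 or more of the 6 genes were found together in 24.1% of straight and 9.79% of curly cells of cluster 4, and in 45.6% and 37.8% of cluster 5. Across the 27 clusters, FN1 and SPON2 followed each other with a Pearson r of 0.80 of log2(CPM + 1) in each library, POSTN followed THBS1 (0.63 and 0.60) and THBS2 (0.63 and 0.66), and TNC followed none of the others above 0.40. These correlations describe clusters of 1 library each, which share free RNA and depth. The patterns most like FN1 were those of IGF2, a growth factor (r 0.93 and 0.92), EBF1, a transcription factor (0.91 and 0.94), and COL15A1, a basement membrane collagen (0.90 and 0.95). For SPON2 they were PCOLCE, which speeds procollagen cleavage, TWIST1, a mesenchymal transcription factor, and SERPINF1 (lower r of the libraries 0.87, 0.87 and 0.86).

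The remaining genes had other neighbours. POSTN was most like RGMA, a membrane co-receptor of bone morphogenetic proteins, HCFC1R1 and LMO1 (lower r 0.85, 0.84 and 0.84), THBS1 like ABI3BP, an extracellular matrix protein, GOLIM4 and EXT1, which polymerises heparan sulfate (0.81, 0.76 and 0.75), and THBS2 like RGMA, NFIA and NBL1, an antagonist of bone morphogenetic proteins (0.72, 0.71 and 0.70). TNC was most like EDN3, BMP3 and ASIP (0.71, 0.62 and 0.60), of which EDN3 and ASIP act on melanocytes. EDN3 was itself among the markers used to name the DPC-like clusters.

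Of 19 receptors of these proteins listed, integrin chains, CD44, CD47, syndecans and LRP1 among them, 17 were in the table. Over all cells, 3 of the 16 with at least 100 UMIs were past 2-fold lower in curly and 0 higher, beside 6.91% of all genes lower. Their median log2 ratio was -0.40, beside -0.18 for all genes, in libraries that differed in their cells. In the leading clusters 4, 5 and 12 there were 9, 11 and 9 with at least 100 UMIs, and 0 of them were past 2-fold between the libraries, with median log2 ratios of -0.26, -0.23 and -0.13 beside -0.10, -0.21 and -0.07 for all genes. In all, 12.4%, 5.54% and 3.44% of the genes of these clusters were past 2-fold. The highest receptor of cluster 12 was SDC4, a syndecan that binds fibronectin and thrombospondin, at 823 and 755 CPM, and that of cluster 4 was SDC2 at 364 and 344 CPM. In cluster 5 SDC1 stood at 399.5 and 334 CPM.

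Among 24 other matricellular and adhesive genes in the table, 12 of the 21 with at least 100 UMIs were more than 2-fold lower in curly over all cells, 0 were higher, and their median log2 ratio was -1.30, beside 6.91% of all genes lower and a median of -0.18. These sums too are over libraries that differed in their share of dermal cells. Within DPC-like cluster 4 it was 5 of 18, beside 9.44% of all genes there, with a median of -0.33 beside -0.10, and none of the 18 was past 2-fold higher. CCN1, an integrin ligand of early response, was 415 and 113 CPM (ratio -1.87), NID1, a basement membrane linker, 33.6 and 11.8 CPM (-1.51), TGFBI, a periostin relative, 28.9 and 12.6 CPM (-1.20), SPARCL1 24.6 and 5.04 CPM (-2.29) and CCN4 19.0 and 8.40 CPM (-1.18). The most abundant of the list, FBLN1 (1323 and 1441 CPM) and the collagen binder SPARC (1133 and 705 CPM), had ratios of 0.12 and -0.69. DPC-like cluster 1 did not share the lower median of cluster 4. Of the 14 measured there, 2 were past 2-fold lower and 0 higher, beside 2.72% of all genes lower. The median log2 ratio of the 14 was -0.01, beside -0.08 for all genes of that cluster. Summed over the list, the level of cluster 1 was 4328 (straight) against 4440 (curly) CPM.

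In cluster 12, the peak of THBS2 and the cluster with the highest mean POSTN, 2 of the 7 measured were past 2-fold. Both were lower in curly, beside 1.79% of 4126 genes at least 2-fold lower there. SPP1, the integrin ligand osteopontin, was 287 CPM in straight cells and 30.5 CPM in curly cells (ratio -3.23, -3.74 to -2.76), and TGFBI was 66.1 and 9.63 CPM (-2.78). SPARC and CCN1 had ratios of -0.63 and 0.44. The dissociation genes had a median ratio of 0.03 in this cluster, with 0 of 9 past 2-fold. In cluster 5 only CCN1 of 5 measured was past 2-fold, at 55.8 and 23.8 CPM (-1.23), beside 3.25% of 3630 genes at least 2-fold lower.

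Of 11 genes of TGF-beta signalling, which thrombospondin 1 can activate and which induces POSTN, FN1 and TNC in many cells, 5 were measured in cluster 4. There SKIL and SMAD7, both feedback inhibitors of the pathway, were past 2-fold lower in curly, beside 9.44% of all genes. SKIL was 46.9 and 15.96 CPM and SMAD7 19.7 and 9.24 CPM. LTBP1, which anchors latent TGF-beta to the matrix, was 281 and 170 CPM (-0.73). In DPC-like cluster 1, 0 of 3 measured were past 2-fold, with a median log2 ratio of -0.18 beside -0.08 for all genes. In cluster 5 LTBP1 was 102 and 36.6 CPM (-1.48) and TGFB1 27.4 and 27.6 CPM. In cluster 12 none of 4 was past 2-fold, with TGFB2 at 45.2 and 42.6 CPM.

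Of 10 enzymes in the table that process these proteins or their matrix, 1 of 5 measured in cluster 4 was past 2-fold, beside 12.4% of all genes there. It was ADAMTS1, a protease that cuts thrombospondins and proteoglycans, at 27.8 and 9.24 CPM (-1.59). The protease inhibitor TIMP1 was 388 and 394 CPM and the cross-linking enzyme LOXL1 89.5 and 93.2 CPM. LOXL1 was 157 and 66.9 CPM (-1.23) in cluster 5, where it was 1 of 3 measured and the only one past 2-fold, beside 5.54% of all genes. In cluster 26 LOX was 287 and 599 CPM from 23 and 51 UMIs.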

How the data were processed

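Each wool type is 1 pooled library. Reads had been aligned to Oar_rambouillet_v1.0. In the 1 table that the authors deposited, each value is a natural log of (1 + the UMIs of a gene per 10000 UMIs of its cell), a unit read from the values. The submitters' processing notes name Cell Ranger 3.0.2. UMI counts were calculated back, and 100% of 28552149 values above 0 came out whole within 0.01. The series' design text gives 7263 straight and 8567 curly cells, and the table holds 6452 and 7585.

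Libraries were integrated in Seurat 5.3.0 (R 4.3.3) by anchors on 2000 variable genes, from which the 6 genes were taken out, with 30 dimensions, and clustered at resolution 0.8. Clusters were named from marker lists by a score of at least 1.5 with at least 3 markers in 10% of cells. These limits and the KRT5 and KRT15 group rule were chosen with the data in view. Intervals are exact Poisson for CPM, exact Clopper-Pearson for shares, and from the binomial split of both sums for ratios. Only the ratio intervals were run on simulated data, drawn as Poisson counts. Those counts follow the model of the interval and lack the clumping of UMIs in single cells. The simulation therefore checks the calculation and not the cover on real cells. A ratio counted if the gene had at least 100 UMIs in the cluster, and 2-fold was the limit. A leading cluster has the highest mean CPM of both libraries. Doublets were kept; the 6% of cells with the highest Scrublet scores (387 and 455) were left out in an alternative, since its own threshold called 0.93% and 0.0264%. Python 3.11.15, numpy 2.4.6, scipy 1.17.1 and scanpy 1.11.5 were used.

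The 6 genes and the lists were chosen with earlier results of these data known. Named are the 6 genes, the 3 most similar patterns of each among genes with at least 1000 UMIs, and, in a leading cluster, the 2 highest genes of each list and those past 2-fold. KRT5, KRT14, KRT15, COL1A1, IGFBP3, WIF1 and LUM were named after their values were seen. LOC symbols were named through a RefSeq annotation of another assembly (ARS-UI_Ramb_v3.0), and no position was taken from it.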

Additional observations from a re-analysis of the deposited data

Results flagged for a closer look

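POSTN had ratios past 2-fold in opposite directions in different clusters, each with an interval on its own side of 0. The log2 ratio of curly over straight was 1.05 in DPC-like cluster 4 and 1.06 in cluster 9, led by KRT6A, and -3.32 in suprabasal IFE-like cluster 22. With 1 library per wool type the difference between the clusters was not tested. Without the cell with the most POSTN UMIs in each library, an alternative chosen after seeing the data, the ratios were 0.43, 1.24 and -3.39, so the value of cluster 4 rested largely on 1 curly cell with 40 of 78 UMIs. In cluster 9 the thinned share of cells with POSTN was 6.77% in straight and 7.26% in curly, with overlapping intervals.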

How the results depend on the processing

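No paired analysis was possible because each wool type has 1 library. Over all cells, the log2 ratios of POSTN, THBS1, THBS2, FN1 and SPON2 were -1.23, 0.32, -1.35, -2.84 and -1.16 with TMM scaling. As means of per-cell CPM the 6 were -0.95 (POSTN), 0.42 (THBS1), -1.14 (THBS2), -1.52 (TNC), -2.20 (FN1) and -0.77 (SPON2). In the 61.4% of straight and 57.0% of curly cells with the most detected genes POSTN was -1.69, THBS1 -0.039, FN1 -3.68 and SPON2 -2.03. With the same cluster weights, chosen after seeing the data, the values were -0.76, -0.064, -0.76 (THBS2), -0.99 (TNC), -1.54 (FN1) and -0.005 (SPON2). In the leading clusters, POSTN was 0.056 as a mean of per-cell CPM, -0.92 at resolution 1.2 and -2.36 without integration, where other cells led (0.223% and 0% of those of cluster 12). THBS1 in cluster 5 was 0.31 with TMM, -0.20 as a mean of per-cell CPM and 0.22 in the cells with the most genes. THBS2 was reversed to -0.66 at resolution 0.4, -0.25 at 1.2 and -0.51 with the 6 genes among the variable genes, where cluster 26 no longer led it. TNC was -0.47 (-1.02 to 0.05) in the cells with the most genes. Without integration it was -0.75 (-1.61 to 0.08), from 36 and 20 UMIs of a leading cluster with 0% of the cells of cluster 4. SPON2 was 0.34, 0.31 and 0.32 at resolutions 0.4 and 1.2 and with the 6 genes among the variable genes. Larger clusters then led it (685 and 519, 516 and 391, and 486 and 369 cells), which held 100%, 0% and 9.28% of the cells of cluster 26. FN1 was lower in curly in all 5 alternatives over all cells and all 7 in its leading cluster (-1.90 to -0.78), which in 3 of the 7 (-1.86, -1.86 and -1.90) was another cluster with 0% of the cells of cluster 26. Removing likely doublets moved none of these 12 ratios beyond its interval. With at least 20 UMIs, 18.7%, 13.2%, 9.39% and 22.0% of genes were past 2-fold in clusters 4, 5, 12 and 26. The cells with the most genes, or those with at least 2000 UMIs (chosen after seeing the data), were not run for THBS2, FN1 and SPON2 in cluster 26, where under 25 cells were left. Depth limits clusters 21 and 26 and THBS2 and TNC outside their peaks.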

Other observations

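In cluster 28, led by FGFBP1 and CLSTN3, which had 52 straight and only 19 curly cells and entered no comparison, THBS1 was 257 CPM (218 to 301) in straight and 76.2 CPM (48.3 to 114) in curly cells. In the leukocyte-like cluster 29 (18 and 23 cells) POSTN had 2 and 29 UMIs, and 1 curly cell held 16 of the 29. Cluster 2, led by HBB, with a median of only 656 and 732 UMIs per cell, had POSTN at 886 and 327 CPM and THBS1 at 162 and 142 CPM.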
